A study of Mus musculus with 2 samples.

Results

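Store-operated calcium entry and the NFAT transcription factors that it switches on were described here through the accessible chromatin of 10 genes in activated regulatory T cells of the mouse. The 10 genes were chosen by name for their place in that pathway: Itpr1, Stim1, Stim2, Orai1, Orai2, Ppp3ca, Nfatc1, Nfatc2, Nfatc3 and Nfat5. They are 10 of the 21938 protein-coding genes of the GENCODE M21 annotation. An accessible region was counted for a gene when it lay in the gene body, or when the transcription start site (TSS) nearest to its summit belonged to the gene and lay within 100 kb. By this rule 70 of the 26090 regions of the deposited list belonged to the 10 genes.

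The study profiled open chromatin by ATAC-seq, in which a transposase inserts sequencing adapters where DNA is accessible. The cells were primary activated regulatory T cells, labelled as derived from bone marrow hematopoietic cells, of male mice aged 4 months. All cells carried both labelled alleles, Foxp3CreERT2, a drug-inducible Cre recombinase expressed from the Foxp3 locus, and Rosa26YFP, a Cre-dependent fluorescent reporter at a ubiquitous locus. There were 2 libraries, technical replicates of 1 biological replicate, in 1 group with no control group. The sources used here do not give how the cells were activated and sorted, how many animals were pooled or whether the drug was given. The peak lists describe both libraries together, so no value below has a replicate error and none was tested. Read depth is unknown. The genes are therefore compared with one another and with the rest of the genome in the same cells. A region open in some of the cells and a region weakly open in all of them cannot be told apart in such data.

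When a T cell receptor is engaged, inositol trisphosphate opens receptors of the endoplasmic reticulum and the store loses calcium. Sensor proteins of the STIM family detect the loss and open plasma membrane channels built from ORAI proteins. The calcium that enters activates the phosphatase calcineurin, which removes phosphates from NFAT proteins and lets them enter the nucleus. There NFAT often binds DNA beside AP-1, and in regulatory T cells it also acts together with Foxp3.

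The label of the cells was set against marker genes. All 5 regulatory T cell markers (Foxp3, Il2ra, Ctla4, Ikzf2 and Tnfrsf18) had regions, between 2 and 13 each, and 4 of the 5 had a promoter region. All 5 T cell markers (Cd3e, Cd3d, Cd3g, Cd4 and Cd5) had between 1 and 8 regions, and again 4 of 5 had a promoter region. Of the B cell markers reported here, Cd79a and Cd79b had 1 region each, Ms4a1 had none, and no promoter region was found at these genes in that list. The pseudoreplicated list, a longer and less strict one described below, held a promoter region at Cd79b and also at Cd4. Of the myeloid markers, Itgam had 1 region, and Lyz2, Cd68 and Csf1r had none. Of the CD8 and natural killer cell markers, Cd8a and Ncr1 had no region, whereas Cd8b1 had 1 region at its promoter and Klrb1c had 8 distal regions. What part other cells had in the regions of the calcium and NFAT genes was not tested.

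The sequences below show the accessible DNA behind the strongest and the most contrasting regions of the 10 genes. Each window reaches 100 bases to either side of the strongest summit, except that the windows at the starts of Itpr1 and Stim2 end at the base before the TSS. All were read from the RefSeq sequence of GRCm38.p6, the assembly of mm10, and are written 5′ to 3′ on the strand of the gene. Capitals mark matches to the motifs searched, on either strand. The Itpr1 and Stim2 starts are a strong and a weak promoter of the group, at chr6:108212979-108213095 and chr5:53998324-53998498 on the plus strand. The upstream region of Ppp3ca, at chr3:136611802-136612002 on the plus strand, had the highest signal value of all 70, and its capitals are a Runx match. The intron 1 region of Stim1, at chr7:102338018-102338218 on the plus strand, holds 3 NFAT cores and a Foxo match. The intron 42 region of Itpr1, at chr6:108435488-108435688 on the plus strand, holds an ETS match. The intron 2 region of Nfat5, at chr8:107324226-107324426 on the plus strand, holds 2 TCF matches. The intron 1 region of Nfatc2, at chr2:168575019-168575219 on the minus strand, holds 2 NFAT cores and a Klf or Sp match. The intron 44 region of Itpr1, at chr6:108448127-108448327 on the plus strand, was the distal region that paired the longer NFAT form with an AP-1 match. The promoter region of Nfatc2 with the highest signal of its 3, at chr2:168590757-168590957 on the minus strand, holds an AP-1 match and 2 ETS matches.
Itpr1 region 1: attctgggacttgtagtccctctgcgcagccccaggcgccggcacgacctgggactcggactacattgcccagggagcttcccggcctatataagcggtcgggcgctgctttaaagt
Stim2 region 2: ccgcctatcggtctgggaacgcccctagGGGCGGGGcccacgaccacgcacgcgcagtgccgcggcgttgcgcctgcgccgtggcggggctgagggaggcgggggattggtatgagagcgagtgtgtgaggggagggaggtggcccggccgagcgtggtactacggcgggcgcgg
Ppp3ca region 1: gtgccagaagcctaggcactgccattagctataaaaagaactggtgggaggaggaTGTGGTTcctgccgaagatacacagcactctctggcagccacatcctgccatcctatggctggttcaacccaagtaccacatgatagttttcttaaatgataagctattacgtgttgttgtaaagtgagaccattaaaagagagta
Stim1 region 3: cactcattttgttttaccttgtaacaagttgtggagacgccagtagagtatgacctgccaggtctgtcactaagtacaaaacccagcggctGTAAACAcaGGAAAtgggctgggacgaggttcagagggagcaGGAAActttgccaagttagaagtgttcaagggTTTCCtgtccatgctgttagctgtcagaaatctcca
Itpr1 region 9: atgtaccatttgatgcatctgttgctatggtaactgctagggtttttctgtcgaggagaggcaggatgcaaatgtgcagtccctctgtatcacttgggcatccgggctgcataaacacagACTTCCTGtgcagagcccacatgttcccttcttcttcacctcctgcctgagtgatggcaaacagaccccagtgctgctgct
Nfat5 region 2: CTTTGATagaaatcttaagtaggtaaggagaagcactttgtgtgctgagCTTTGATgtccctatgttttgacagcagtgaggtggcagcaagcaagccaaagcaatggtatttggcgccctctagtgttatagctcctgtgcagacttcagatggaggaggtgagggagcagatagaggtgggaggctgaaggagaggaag
Nfatc2 region 6: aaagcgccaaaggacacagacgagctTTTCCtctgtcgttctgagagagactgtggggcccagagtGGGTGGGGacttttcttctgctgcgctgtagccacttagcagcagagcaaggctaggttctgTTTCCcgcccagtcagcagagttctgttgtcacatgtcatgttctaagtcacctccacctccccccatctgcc
Itpr1 region 10: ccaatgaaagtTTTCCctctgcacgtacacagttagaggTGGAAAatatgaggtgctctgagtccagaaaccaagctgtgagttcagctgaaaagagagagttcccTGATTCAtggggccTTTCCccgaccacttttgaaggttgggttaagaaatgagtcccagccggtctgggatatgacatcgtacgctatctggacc
Nfatc2 region 2: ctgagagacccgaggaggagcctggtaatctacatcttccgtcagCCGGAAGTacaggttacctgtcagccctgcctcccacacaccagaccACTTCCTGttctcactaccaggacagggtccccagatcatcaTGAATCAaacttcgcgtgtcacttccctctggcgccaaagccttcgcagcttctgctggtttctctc

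The 70 regions covered 43.9 kb and held 121 summits. They made up 0.268% of all regions. The bodies of the 10 genes, which held 63 of the 70, made up 0.123% of the length of all protein-coding gene bodies. The median over the 10 genes was 6 regions, against 1 over all protein-coding genes, of which 41.3% had none. Itpr1 had the most, with 18 regions, followed by Nfatc1 with 15, Stim2 and Nfatc2 with 8 each, and Stim1 and Ppp3ca with 6 each. Nfatc3 had 3 regions, and Orai1, Orai2 and Nfat5 had 2 each. Thus 6 of the 10 genes had 5 or more regions, a count that 5.54% of all protein-coding genes reached.

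Most of the 10 genes are long. Their bodies ran from 15.4 kb in Orai1 to 338 kb in Itpr1, where the median gene spans 17.4 kb. The order changed when all regions of a gene, in its body or outside it, were counted per 100 kb of body. Nfatc1 with 14.0 regions and Orai1 with 13.0 came first, above 83.8% and 82.6% of all genes, and Itpr1 with 5.33 stood above 64.7%. The place of Nfatc1 before Orai1 rests on 2 regions outside its body, and Orai1 has none outside. Ppp3ca with 2.24 and Nfat5 with 2.32 stood close to the middle of all genes. The median over the 10 genes was 5.86 regions per 100 kb, against 2.17 over all genes. What part gene length had in the counts was not tested.

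**Figure D1:**
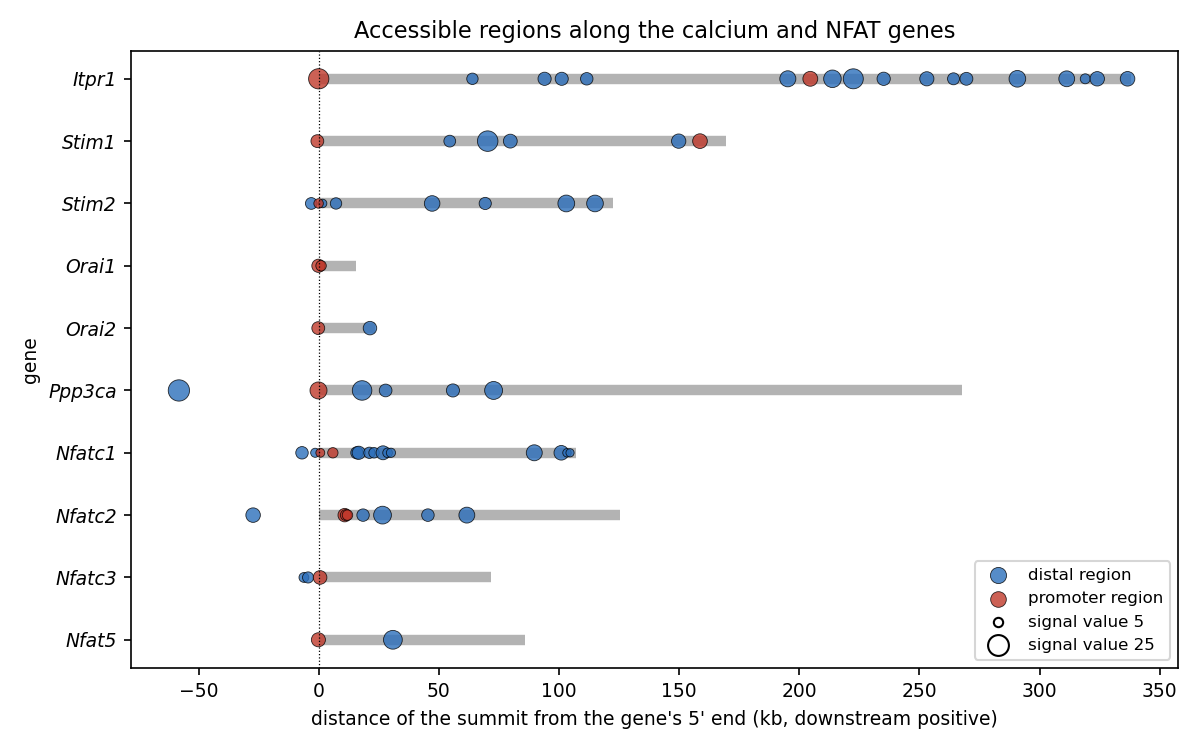
Position of each of the 70 regions of the 10 genes, as the distance of its strongest summit from the gene's 5′ end in kb, downstream positive. Grey bars are gene bodies, red points are promoter regions, blue points are distal regions, and the point area grows with the signal value. Itpr1 regions spread along the gene to 336.6 kb, Nfatc1 regions crowd near its 5′ end, and the largest point lies 58.2 kb upstream of Ppp3ca.

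Of the 70 regions, 16 were promoter regions, within 1000 bp of a TSS of a protein-coding transcript, and 54 were distal. Of the distal regions, 47 had their summit in an intron, 6 lay between genes, 1 lay in the 3′ UTR of Orai2 and 0 lay in a coding exon. The 7 regions outside the gene bodies all lay upstream of the gene concerned. Distal regions lay at a median of 62.8 kb from the 5′ end of their gene, and 31 of the 54 lay over 50 kb away. Intron 1 held 12 of the 54, in 4 genes. The matching shares over all distal regions are not given for these positions and distances.

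All 10 genes had a promoter region, where 48.0% of all protein-coding genes had one. The genes carry 36 annotated TSSs, of which 29 had a region within 1000 bp. Over all genes this held for 45.2% of TSSs. The 7 TSSs without a region belong to Itpr1 (1), Stim2 (1), Nfatc2 (2) and Nfat5 (3), and each of those genes had a region at another TSS.

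Each region was given the signal value of its strongest peak, an enrichment from the peak caller over a reference that the sources do not give. Among the genes of the store and its sensors, Itpr1 encodes the type 1 inositol trisphosphate receptor, the channel that lets calcium out of the endoplasmic reticulum. Its promoter region, at chr6:108212695-108213502, had its summit 17 bp from the TSS. Its signal of 23.7 was the highest of the 16 promoter regions and exceeded 90.5% of all promoter regions. A further promoter region, with a signal of 12.7, lay 204.6 kb into the gene in intron 38, where the annotation places the starts of the shorter transcripts Itpr1-202, Itpr1-206 and Itpr1-207. The start of Itpr1-208, 143.2 kb into the gene, had no region in either list.

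The 16 distal regions of Itpr1 all lay in its introns, from 64.0 kb to 336.6 kb from the 5′ end, with signals between 5.73 and 23.0. The strongest, with 23.0, was the intron 42 region shown above and exceeded 95.4% of all distal regions. It closed a run of 4 regions over 28.0 kb, from intron 35 to intron 42. The 3 distal regions of the run, with signals of 14.9, 17.7 and 23.0, exceeded the median distal signal of 12.6 in the whole list. The run includes the internal promoter region, whose signal of 12.7 exceeded 34.4% of all promoter regions. No region lay between 111.5 kb and 195.2 kb. The last region, in intron 61, was counted because it lies in the gene body, although the TSS nearest to it is that of the neighbouring gene Bhlhe40.

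Stim1 encodes the main calcium sensor of the endoplasmic reticulum, and its 6 regions included 2 promoter regions. The region at its 5′ end had a signal of 9.48 and spread over 1773 bp with 5 summits. The region at the start of the short transcript Stim1-207, 158.7 kb into the gene in intron 8, had a signal of 12.4. Its strongest region was distal, in intron 1 at 70.3 kb, at chr7:102337885-102338458, with a signal of 24.2 that exceeded 96.8% of all distal regions. The other 3 distal regions had signals of 8.02, 11.1 and 11.8. At Stim1 the internal start was thus marked by a higher signal than the main start, but by a lower −log10 p (37.0 against 139).

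Stim2 encodes the relative of Stim1 that responds to smaller losses of store calcium. Its promoter region, at chr5:53998180-53998617, had a signal of 5.24, above 2.68% of all promoter regions, and its window above is rich in CpG, with 24 in 175 bases. Its distal regions differed along the gene. The 3 distal regions within 10 kb of the 5′ end had signals of 7.99, 4.18 and 7.51, and with the promoter they formed a run of 4 regions over 10.9 kb. The regions at 47.2 kb, 103.0 kb and 115.0 kb had signals of 13.96, 16.2 and 16.0, with 8.56 at 69.3 kb between them. The highest signals of Stim2 were thus found far from its 5′ end, though the transcript Stim2-203 starts at 106.9 kb. By −log10 p the region 3.11 kb upstream (142) ranked below that at 103.0 kb (146) but above those at 47.2 kb (104) and 115.0 kb (50.6).

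Among the channels, Orai1 encodes the pore subunit of the calcium release-activated channel. It had 2 regions, both promoter regions, with signals of 10.1 at 140 bp upstream of the TSS and 6.31 at 958 bp downstream in intron 1. Orai1 was the gene of the 10 with no distal region in the thresholded list. The pseudoreplicated list held a distal region of Orai1 at 6.54 kb, with a signal of 6.45. Orai2 encodes a relative that can join Orai1 in the channel and lower its current in mouse T cells. Its promoter region, 1453 bp wide with 5 summits, had a signal of 9.53. Its other region, with a signal of 10.5, lay in its 3′ UTR at 21.3 kb, and the nearest TSS to that summit is that of Alkbh4. The channel genes thus held 4 of the 70 regions, with signals between 6.31 and 10.5.

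Ppp3ca encodes the alpha catalytic subunit of calcineurin. Its promoter region, at chr3:136669392-136670782, had a signal of 16.7 and, with that of Itpr1, was 1 of the 2 that exceeded the median of all promoter regions. The region 58.2 kb upstream, at chr3:136611530-136612287, had the highest signal of the 70, 26.1, above 98.5% of all distal regions. Its nearest TSS is that of Ppp3ca, and it lies outside every annotated protein-coding gene. The other 4 distal regions all lay in intron 1, between 18.03 kb and 72.8 kb, with signals of 21.98, 9.31, 9.91 and 18.5. The median over the 6 regions, 17.6, was the highest of the 10 genes, and no thresholded region lay in the remainder of the 268 kb gene.

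Nfatc1, on chromosome 18, encodes an NFAT factor that is induced in activated lymphocytes and is known to be transcribed from an upstream inducible promoter and a downstream promoter. Its 15 regions were many but mostly low in signal, with a median of 6.34. The region 642 bp downstream of its 5′ end, at chr18:80712311-80712681, had a signal of 4.55, above 1.39% of all promoter regions. The region near the downstream start, used by Nfatc1-201, Nfatc1-203 and Nfatc1-205, had a signal of 6.17, with its summit 966 bp from that start. The pseudoreplicated list, which is longer and less strict, also held a region over each start, with signals of 3.49 and 3.96. Their irreproducible discovery rates (IDR, the expected share of irreproducible peaks among those ranked as high or higher in the 2 inputs compared) were 0.0838 and 0.147, above the limit of 0.05. Thus the summits that passed lay beside the starts of Nfatc1 rather than on them.

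The regions of Nfatc1 were packed closely. From 6.98 kb upstream to 30.04 kb downstream of the 5′ end, 11 regions followed each other over 37.3 kb with gaps under 10 kb, 9 of them distal, with signals between 4.55 and 11.2. Of all protein-coding genes, Sfi1 with 15 and Cpox with 11 also had a run of at least 11, so such runs occurred at 3 genes, or 0.0137%. With gaps under 5 kb the longest run of Nfatc1 was 7, and 5 other genes had a run at least as long. With gaps under 20 kb it was 11, and 37 other genes had a run at least as long. A second group of 3 regions over 4.23 kb lay near the 3′ end, in intron 9, with signals of 12.3, 4.09 and 3.86. The region of the gene with the highest signal, 14.7, lay in the same intron at 89.7 kb. It was the single distal region of Nfatc1 above the median signal of all distal regions. By −log10 p the region with a signal of 12.3, at 100.9 kb, ranked above it (269 against 76.5).

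Nfatc2 encodes NFAT1, the form that resting T cells already hold in the cytoplasm. Its annotation has an upstream pair of TSSs and a group of 3 TSSs from 11.3 kb to 11.5 kb downstream. All 3 promoter regions lay at the downstream group, with signals of 10.5, 7.16 and 6.30. The upstream pair had no thresholded region, and the pseudoreplicated list held a region there at a signal of 4.39 (IDR 0.388). The strongest region was distal, in intron 1 of Nfatc2-204 at 26.5 kb, at chr2:168574719-168575437, with a signal of 18.2. The other 4 distal regions had signals between 8.91 and 14.5, and 1 of them lay 27.3 kb upstream of the gene. In Nfatc2 the thresholded regions thus marked the downstream starts alone.

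Nfatc3 encodes a further calcineurin-dependent NFAT factor. Its promoter region, at chr8:106058616-106059692, had a signal of 10.8. Its distal regions lay 6.19 kb and 4.45 kb upstream, with signals of 5.56 and 7.16, and the first of them lies in an intron of the neighbouring gene Dus2. No thresholded region lay in its body beyond the promoter. Nfat5 encodes the family member that responds to osmotic stress and lacks the calcineurin docking site. It had a promoter region with a signal of 11.4 and 1 distal region in intron 2 at 30.9 kb, at chr8:107323959-107324474, with a signal of 20.3. The starts of its shorter transcripts Nfat5-202, Nfat5-207 and Nfat5-208, from 45.3 kb to 62.4 kb into the gene, had no region in either list.

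The promoter regions of the 10 genes were weaker than most. Their median signal was 9.80, against 15.4 over all 10748 promoter regions, and 2 of the 16 exceeded that median. As a set they were also poorer in CpG, with a median of 10 within 100 bp of the summit against 16. Their median GC content was 59.7% against 63.7%. The CpG counts were low in the second promoter regions of Itpr1, Stim1, Orai1 and Nfatc1 (6, 4, 6 and 6) and in the outer promoter regions of Nfatc2 (7 and 4). In the others they were 11 (Itpr1), 16 (Stim1), 28 (Stim2), 24 (Orai1), 5 (Orai2), 18 (Ppp3ca), 14 (Nfatc1), 24 (Nfatc2), 9 (Nfatc3) and 17 (Nfat5). The distal regions had a median signal of 10.03, against 12.6 over all 15342 distal regions, and 16 of 54 exceeded the median. Without the 13 distal regions of Nfatc1 the median was 11.1, and 15 of 41 exceeded it.

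A few distal regions nevertheless stood high. In the upper 10% of all distal regions were 4: the upstream and first intronic regions of Ppp3ca, the intron 1 region of Stim1 and the intron 42 region of Itpr1. In 7 of the 9 genes with both kinds, the strongest distal region exceeded the strongest promoter region. Over all 4688 genes with both, this held for 50.6%. Those genes were not matched for the number of distal regions, which ran from 1 in Orai2 and Nfat5 to 16 in Itpr1. The exceptions were Itpr1, with 23.7 at the promoter and 23.0 distally, and Nfatc3, with 10.8 and 7.16. By signal, the strongest region of Stim1, Stim2, Ppp3ca, Nfatc1, Nfatc2 and Nfat5 thus lay within an intron or far upstream. By −log10 p the promoter region ranked higher in Ppp3ca (396 against 349 upstream) and in Nfat5 (87.5 against 73.9 in intron 2). In Stim1, Stim2, Orai2, Nfatc1 and Nfatc2 a distal region ranked first by either measure, and in Itpr1 and Nfatc3 the promoter region did. The share of all genes by −log10 p is not given.

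**Figure D2:**
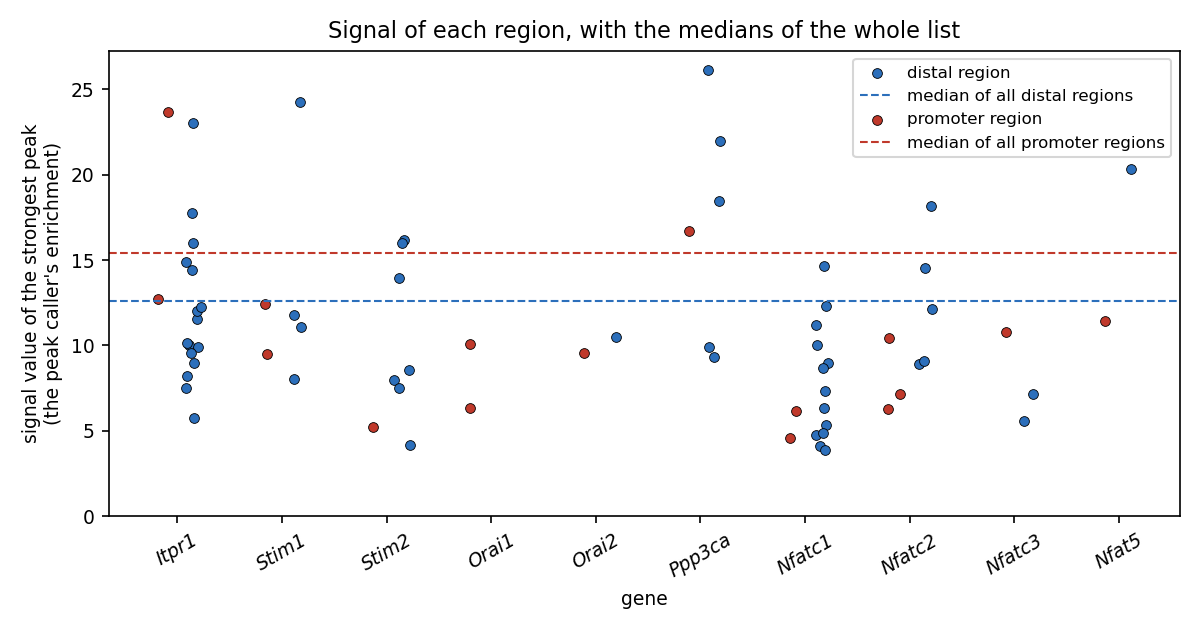
Signal value of the strongest peak of each region, by gene, with promoter regions in red and distal regions in blue. Dashed lines mark the medians of all promoter regions (15.4) and all distal regions (12.6). Only Itpr1 and Ppp3ca have a promoter region above the red line, and all but 1 of the 13 distal points of Nfatc1 lie below the blue line.

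Motifs were sought on both strands within 100 bp of the strongest summit of each region. The NFAT core was written GGAAA and its longer form TGGAAA, which contains the core. Among distal regions of the 10 genes, 33 of 54 held the core (61.1%, Wilson 95% interval 47.8 to 73.0%), and 55.9% of all distal regions did. The longer form was found in 7 (13.0%, interval 6.42 to 24.4%), against 16.5%. Both intervals include the share of all distal regions. A match describes the letters present and is not a bound site.

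The AP-1 motif, TGANTCA, was found in 2 of the 54 distal regions (3.70%, interval 1.02 to 12.5%), against 13.4% of all distal regions. The low share rests on few regions and on the list. In the longer pseudoreplicated list, 11 of 107 distal regions of the 10 genes held the motif (10.3%, interval 5.84 to 17.5%), against 12.4% of all distal regions there, so the interval includes that share. In the thresholded list both matches belong to Itpr1, in introns 4 and 44. Nfatc1, Nfatc2, Ppp3ca, Stim1 and Stim2 had no AP-1 match at a distal summit of that list. A composite of both motifs was written as an NFAT core followed after 4 to 6 bases by TGANTCA. It was found in 0 of 54, which allows a share of up to 5.56%, and in 0.150% of all distal regions. Other spacings were not searched, so these shares do not cover composites with a shorter or longer spacer. The 1 distal region that paired TGGAAA with AP-1 is the intron 44 region of Itpr1 printed above, and its matches are not in the arrangement searched. Intervals and limits cover counting error only.

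The ETS motif, CCGGAAGT or CAGGAAGT, was found in 12 distal regions (22.2%, interval 13.2 to 34.9%), against 14.7% of all. Of these, 4 belong to Itpr1 and 3 to Nfatc1, and 6 of the 12 also held an NFAT core, as did 33 of all 54. The Runx motif TGTGGTT was found in 6 (11.1%), against 13.8%, and included the strongest region, upstream of Ppp3ca, and the first intronic region of that gene. The forkhead motif TGTTTAC, written for Foxo, was found in 4 (7.41%), against 3.85%. The TCF motif CTTTGAT was found in 3 (5.56%), against 4.66%, and the intron 2 region of Nfat5 held it at 2 positions. The Klf or Sp motif GGGNGGGG was found in 8 (14.8%), against 15.5%, and the GATA motif AGATAA in 4 (7.41%), against 10.1%.

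The rarer motifs gave few matches. The NF-kB motif, GGGA and any base before TTTCC, was found in 2 distal regions, in Itpr1 and upstream of Nfatc3, against 1.28% of all, and it contains an NFAT core on the opposite strand. The cyclic AMP response element TGACGTCA was found in 1, in intron 9 of Nfatc1, against 0.991%. The CTCF motif was written CCAC, any base, AGG, any base and then GGCAG. It was found in 0 distal regions, against 1.17%, which says only that these exact letters were not in the windows. Of the 54 distal regions, 9 held none of the 13 motifs, and the share over all distal regions is not given. Among the 16 promoter regions, 7 held the NFAT core, against 43.1% of all promoter regions, 6 held the Klf or Sp motif, against 39.1%, 2 held AP-1, against 3.62%, and 1 held ETS, against 12.4%. The AP-1 matches at promoters lay in Nfatc1 and Nfatc2, and the latter is printed above. Their share of the 16, 12.5%, had an interval of 3.50 to 36.0%, which includes the share of all promoter regions.

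**Figure D3:**
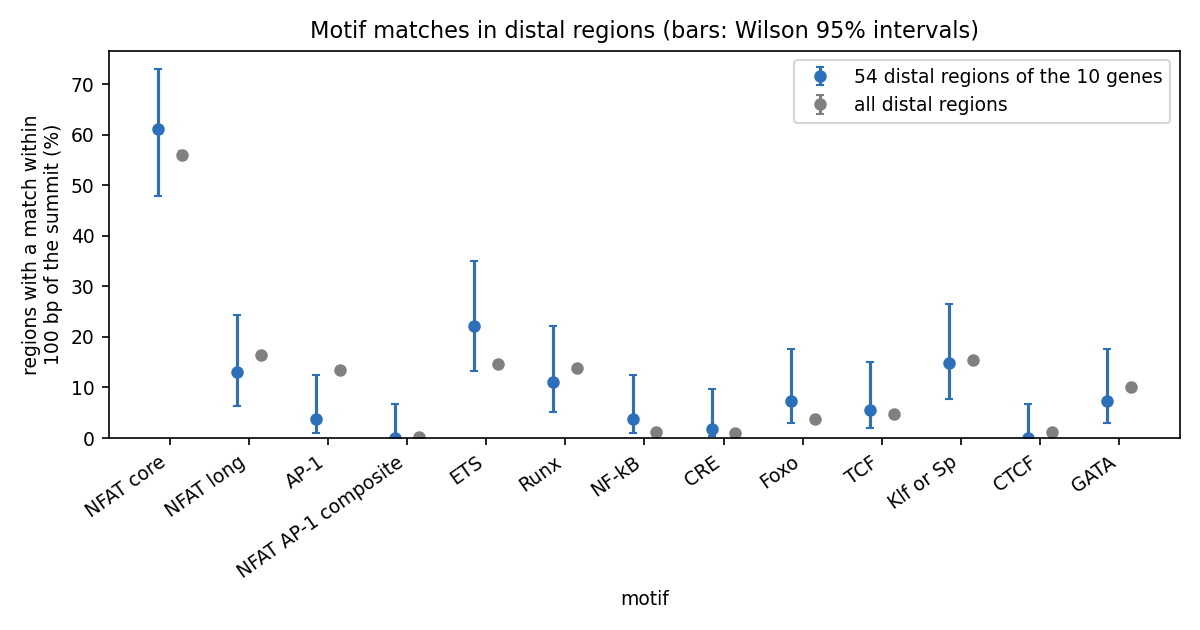
Share of distal regions, in percent, with a match within 100 bp of the strongest summit, for 13 motifs. Blue points are the 54 distal regions of the 10 genes and grey points all 15342 distal regions, each with its Wilson 95% interval. The AP-1 share of 3.70% (2 regions) has an interval below the share of all distal regions, 13.4%, and the other blue intervals reach their grey points. In the pseudoreplicated list, not drawn, the AP-1 share was 10.3% against 12.4%.

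The only measure of error in the lists is the IDR procedure. The 70 regions had a median IDR of 0.00513, against 0.00288 over all regions, and 43 of them (61.4%) had an IDR of 0.01 or below, against 76.2% of all. The ranking values of the 2 inputs, −log10 p at the strongest peak, differed by a median ratio of 1.25 at the 70 regions and 1.20 over all regions. All 70 lay within a ratio of 2, the widest being 1.96 at the intron 3 region of Nfatc2 at 61.6 kb. The IDR limit had already selected peaks for agreement of these inputs, and the share of all regions within that ratio is not given. The last region inside the limit was that of Stim2 at 7.18 kb, with an IDR of 0.0493. The first outside it lay in intron 1 of Ppp3ca at 38.3 kb, with an IDR of 0.0504 at a signal of 9.84.

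**Figure D4:**
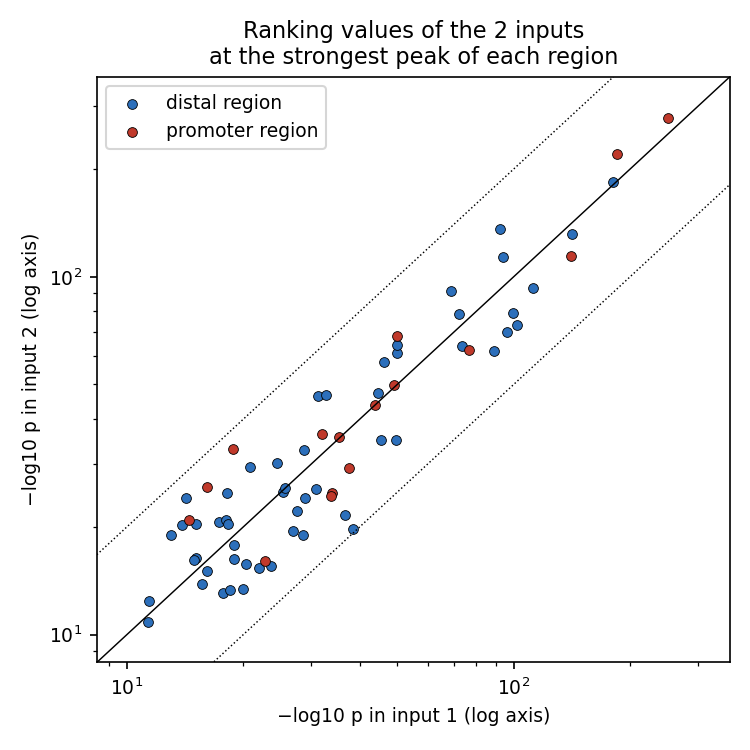
Ranking value, −log10 p, of the strongest peak of each of the 70 regions in the 2 inputs compared by the IDR procedure, both on log axes. The solid line marks equal values and dotted lines a ratio of 2. All 70 points lie between the dotted lines, among peaks that the IDR limit had already selected for agreement of the inputs.

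The pseudoreplicated list held 132 regions for the 10 genes, and every one of the 70 was among them. The 70 are thus 53.0% of the 132, where 52.0% of all pseudoreplicated regions overlapped a thresholded region. The 62 further regions had a median signal of 4.85, against 5.74 over all pseudoreplicated regions outside the thresholded list. Their signals ranged from 1.93 to 10.1. At promoters lay 9 of them, and the matching share over all such regions is not given. Itpr1 rose from 18 to 35 regions, Nfatc1 from 15 to 25 and Stim2 from 8 to 20, while Orai1 and Orai2 went from 2 to 3 each. In that list all 10 genes had a promoter region, against 54.3% of all protein-coding genes. Of their 36 TSSs, 32 had a region, against 51.4% of all annotated TSSs.

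**Figure D5:**
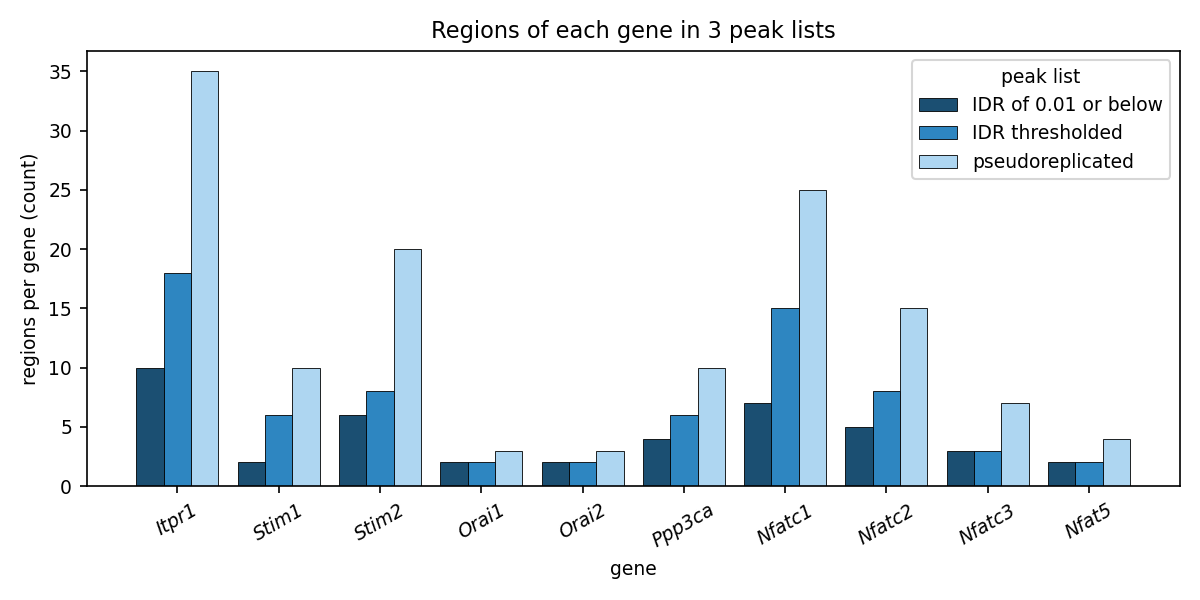
Number of regions of each gene in the list with an IDR of 0.01 or below, the IDR thresholded list and the pseudoreplicated list. Itpr1 and Nfatc1 have the most regions in each of the 3 lists (10 and 7, 18 and 15, 35 and 25).

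Other genes of calcium entry, calcineurin and NFAT control gave a count for the wider pathway. Of 34 such genes, 28 (82.4%) had a promoter region, against 48.0% of all genes, and together they had 114 regions, with a median of 2. Of the 34, 9 had 5 or more regions. Itpkb, a kinase that phosphorylates inositol trisphosphate, had 17. Plcg1, the phospholipase that makes it, and Itpr2, a further receptor for it, had 10 each. The plasma membrane calcium pump gene Atp2b1 and the mitochondrial uniporter gene Mcu had 7 each. Saraf, which restrains store-operated entry, the pump gene Atp2b4 and Tespa1, which binds the receptor in T cells, had 6 each.

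No region was found at Orai3, Ppp3r2, Akap5, Cracr2b, Homer2 and Homer3. Orai3 encodes the remaining ORAI channel, and Ppp3r2 a calcineurin regulatory subunit known from testis. In the pseudoreplicated list Orai3 had 2 regions (highest signal 7.29), Akap5 had 2 (6.75) and Homer3 had 1 (8.44), each with a promoter region, and the other three had none. The other calcineurin subunit genes, Ppp3cb, Ppp3cc and Ppp3r1, all had a promoter region and 2, 2 and 3 regions, and Nfatc4, the remaining calcium-dependent NFAT gene, had 1, at its promoter.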

How the data were processed

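Open chromatin was measured by ATAC-seq in 2 libraries, technical replicates of 1 biological replicate. The authors deposited 3 peak lists on mm10 (pseudoreplicated, IDR ranked and IDR thresholded), which derive from 1 alignment, per the README beside each library. No value belongs to a single library. Not given in the sources used here are the aligner, peak caller, read filters and any shift of reads for the transposase. Read depth is unknown, so counting precision cannot be given for peaks.

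The deposited signal value is the peak caller's enrichment per peak. No result rests on the deposited score of a peak. The deposited −log10 columns hold the caller's p and q values, both forms of the IDR (local and global) and each input's ranking value.

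Peaks that overlapped by 1 bp were merged (48668 peaks to 26090 regions; 77257 to 50037 in the pseudoreplicated list), and the strongest peak of a region gave its signal and summit. Genes and 54361 TSSs of protein-coding transcripts came from GENCODE M21 on GRCm38.p6, and sequence from the RefSeq copy of that assembly. Intron numbers follow the longest-span protein-coding transcript. A run of regions has gaps under 10 kb. Shares carry Wilson 95% intervals, and a count of 0 was given the limit of 3 counts. There is 1 group, so no test was made.

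All 10 genes were named in every case. The result for 1 marker gene is not reported here. Of the other pathway genes, the 6 with the most regions (with ties) and those with no region or no promoter region were named. A few calcineurin and NFAT relatives were added after their values were seen. The genes, lists, motifs and rules were chosen with earlier results of these data known. Alternatives covered the peak list, merging, reach, promoter width, TSS choice, motif window and run gap. Scripts were tested on simulated regions and used Python (3.11.15), scipy (1.17.1), pandas (2.3.3), numpy (2.4.6) and matplotlib (3.10.9).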

Additional observations from a re-analysis of the deposited data

How the results depend on the processing

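All 10 genes had a promoter region in each of the 3 peak lists, with promoter widths of 500 and 2500 bp and with the TSSs of every transcript. With only the most upstream TSS of each gene, an alternative chosen after seeing the data, 9 did, and the exception was Nfatc2. Repeats under other settings numbered 163. A count was held to have moved beyond 1.5 times, a share outside the Wilson interval of the reported share, and a median at any change. By these tolerances 41 moved. The tolerance for shares is wide. The pseudoreplicated list, which holds more peaks, gave 132 regions (107 distal), 27 runs, median signals of 7.39 distally and 6.30 at promoters, and 223 regions for the other pathway genes. Its AP-1 share of distal regions was 10.3%, within the interval of the reported 3.70% though well above it. An IDR of 0.01 or below, which keeps fewer peaks, gave 43 regions (31 distal), 7 runs, a median distal signal of 12.3 and an AP-1 share of 0% of distal regions. Unmerged peaks counted 121 times for the 10 genes (84 distal) and 206 times for the other pathway genes. Promoter widths of 500 and 2500 bp moved the median signals to 10.01 and 10.11 distally and to 10.07 and 9.50 at promoters. A motif window of 50 bp gave the longer NFAT form in 3.70% of distal regions. Counting TSSs of every transcript of protein-coding genes, an alternative chosen after seeing the data, gave median signals of 10.17 and 9.50 and 75 regions, with 20 for Itpr1 and 17 for Nfatc1.

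No paired analysis was possible because the series has 1 group. Leaving out a technical replicate was not possible because no file gives values per library. The lists cannot show differences between animals or states of activation. At unknown depth, a gene without a region is one with none detected, not one shown to be closed. Regions are tied to genes by position alone, and motif matches rest on short strings.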
